A study of Homo sapiens with 8 samples.

Results

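The transcripts described here are long noncoding RNAs of 10 genes: the nuclear RNAs NEAT1 and MALAT1, the microRNA hosts MIR210HG and H19, the host genes of small nucleolar RNAs (snoRNAs) GAS5, SNHG1, SNHG12 and EPB41L4A-AS1, and the RNAs TUG1 and CYTOR (also known as LINC00152). They were chosen by name, with earlier results of these data known. Every listed RefSeq noncoding transcript (NR identifier) of these genes was taken. Of the 10 genes, 9 were listed, with 13 of the 24812 transcripts in the table, and MALAT1 was not analysed here. Polyadenylated RNA was sequenced from SQ20B, an established human cell line of head and neck squamous cell carcinoma, with 4 replicates in normoxia and 4 in hypoxia (0.5% oxygen for 16 h). The labels name no transgene, allele or drug in either group, and the oxygen level of the normoxic cultures is not given in the sources used here. All 8 samples come from this cell line, so the values describe cultured cells of 1 tumor. Of the squamous epithelial markers looked up, KRT5 was at 398 FPKM in normoxia and 442 FPKM in hypoxia, KRT17 was at 50.5 and 56.2 FPKM, TP63 was at 42.8 and 44.6 FPKM, and CDH1 was at 61.1 and 82.6 FPKM. KRT6A was low and lay the other way, at 5.10 and 3.26 FPKM, and KRT14 was not among the listed genes. These are bulk values, in which fewer cells with a transcript and less of it per cell cannot be told apart.

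Long noncoding RNAs act in part through the proteins they bind and in part through small RNAs cut from their transcripts. NEAT1 is the architectural RNA of the paraspeckle, a nuclear body that holds RNA-binding proteins, and its gene gives a short polyadenylated and a long form. Host genes such as GAS5 and SNHG1 carry snoRNAs in their introns, where the snoRNAs guide the chemical modification of ribosomal RNA, while the spliced host RNA often begins with a run of pyrimidines and is degraded when it is translated. MIR210HG is the host of miR-210, a microRNA known for its induction by the hypoxia-inducible factor HIF1A, and H19 is an imprinted RNA that carries miR-675.

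The libraries measured the host transcripts and not the mature small RNAs, whose sequences are shown because the hosts of miR-210 and miR-675 were among the 3 members that stood higher in hypoxia. Capitals mark the seed (bases 2 to 8), and the sequences are RefSeq's for GRCh38.p14. No seed is shared between these 4 microRNAs.
hsa-miR-210-3p: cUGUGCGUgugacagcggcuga
hsa-miR-210-5p: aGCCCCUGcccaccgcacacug
hsa-miR-675-3p: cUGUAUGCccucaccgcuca
hsa-miR-675-5p: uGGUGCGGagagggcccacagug

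In the RefSeq annotation, GAS5 spans 11 snoRNA genes, SNHG1 spans 9, SNHG12 spans 4 and EPB41L4A-AS1 spans 1, SNORA13. NEAT1, MIR210HG and H19 each span 1 microRNA gene (MIR612, MIR210 and MIR675), and TUG1 and CYTOR span neither kind. The transcript of NEAT1 that was listed is the short one (chromosome 11, 65190269 to 65194003 in hg19), and its last 30 bases are shown because the libraries were made from polyadenylated RNA. Capitals mark the polyadenylation signal AATAAA, which begins 30 bases before the end of NEAT1 and 20 bases before the end of H19. Neither AATAAA nor ATTAAA was found in the last 50 bases of MIR210HG.
NEAT1, chr11:65193974-65194003 (+, GRCh37): AATAAAgtttgagttctaaactcattagaa
H19, chr11:2016406-2016435 (-, GRCh37): actcatcatcAATAAAcactgttacagcaa

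FPKM is a fragment count divided by the length of the transcript and by the size of the library, so that levels can be set side by side between genes. The table gives 1 FPKM value per condition, the authors' value over 4 replicates, and no value of a single replicate. No spread between replicates can be given. No test is reported for any comparison here, as the authors' own test values were not used. Which neighbors in an order of levels differ beyond their spread was not tested. Read depth per sample is unknown in this table. Changes are log2((hypoxia FPKM + 0.1)/(normoxia FPKM + 0.1)), which understates the change of low transcripts, and a gene is called higher or lower at 1.5-fold or more with a mean of at least 0.5 FPKM over the conditions. The members' calls are read against all 12107 named genes above that limit, of which 9.94% were higher and 11.2% were lower in hypoxia.

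Of the 9 listed members, 3 were higher in hypoxia (MIR210HG, NEAT1 and H19), 1 was lower (SNHG1), and 5 lay within 1.5-fold. With 9 genes, 9.94% and 11.2% correspond to about 1 gene in each direction. The members and the lists below were chosen with earlier results of these data known, so a difference from these shares is a description and not a test. MIR210HG passed the limit of 0.5 FPKM through hypoxia alone, and the other 8 members passed it in both conditions. The median log2 change of the members was 0.11, beside -0.07 for all genes and 0.02 for the 973 noncoding genes, which had NR identifiers only. Among these noncoding genes, 12% were higher and 11.3% were lower. Scaling the columns to equal sums shifts log2 changes up by 0.23, and by less for low transcripts, where the added 0.1 weighs more. It turned the shares of all genes to 18.3% higher and 4.94% lower, while the members remained 3 higher and 1 lower.

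**Figure D1:**
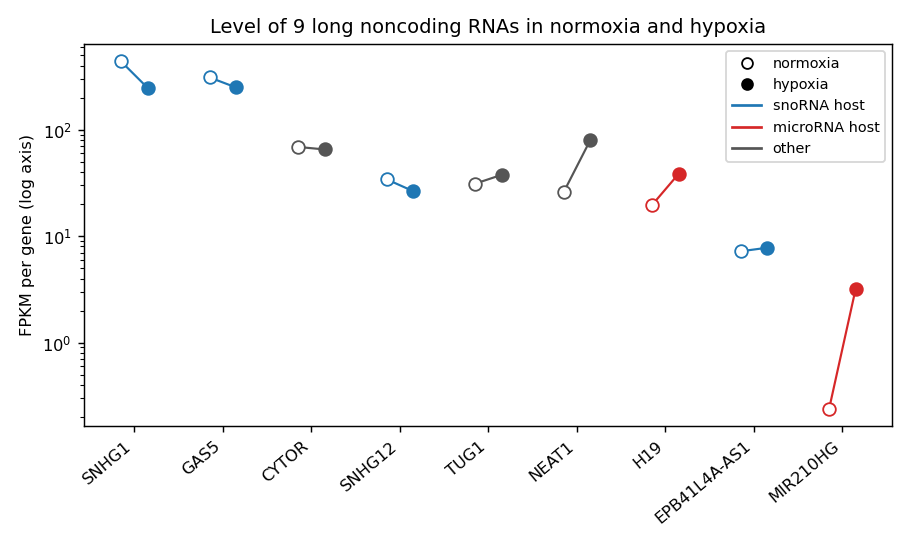
FPKM of the 9 listed members in normoxia (open circles) and hypoxia (filled circles), on a log axis, with genes ordered by their level in normoxia. Colors mark the snoRNA hosts, the microRNA hosts MIR210HG and H19, and the others (NEAT1, TUG1 and CYTOR), with NEAT1 among the others although it spans MIR612. Each circle is the authors' value over 4 replicates, so no error bar is drawn. MIR210HG has the steepest line, NEAT1 and H19 also lie higher in hypoxia, and SNHG1 drops to the level of GAS5.

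MIR210HG, the host of miR-210, lies on chromosome 11 of hg19 (565657 to 568457, minus strand) and was listed with 1 transcript, NR_038262. It was at 0.240 FPKM in normoxia and 3.21 FPKM in hypoxia. This is a ratio of 13.4 with nothing added and 9.75-fold with 0.1 added (log2 change 3.29). With 0.1 added, no other noncoding gene had a larger log2 change, and 14 of the 12107 genes did. MIR210HG was still the least abundant of the 9 members in hypoxia, where it ranked 390th by level of the 973 noncoding genes above the limit. Its rank by level in normoxia is not given, because it passed the limit through hypoxia alone and a low rank follows from that. Because its normoxic level is near the amount added, its log2 change was 1.77 with 1 FPKM added and 3.69 with 0.01, and it remained higher in hypoxia under both. Its rank by change was not recomputed with these amounts, so the first place among noncoding genes is given for 0.1 FPKM alone.

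NEAT1, listed as NR_028272, was at 25.8 FPKM in normoxia and 79.4 FPKM in hypoxia. The hypoxic level was 3.07-fold higher, a log2 change of 1.62, and the added 0.1 hardly bears on it. Its log2 change was exceeded by 126 genes, 19 of them noncoding. Among the members NEAT1 went from 6th by level in normoxia to 3rd in hypoxia, passing SNHG12, TUG1 and CYTOR. The listed transcript ends where the long form continues, so reads of both forms fall in it and the forms cannot be told apart.

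H19 was at 19.6 FPKM in normoxia and 38.5 FPKM in hypoxia, 1.96-fold higher with a log2 change of 0.97. Its transcript NR_002196 lies on chromosome 11 (2016406 to 2019065, minus strand). A larger log2 change was found for 422 genes, 48 of them noncoding. IGF2, the growth factor gene that is imprinted together with H19, was near 0 in both conditions (0.110 and 0.133 FPKM). MRPL23, a mitochondrial ribosomal protein gene 10644 bases from H19, was lower in hypoxia, from 12.3 to 7.13 FPKM. TNNT3, a troponin gene 56460 bases from H19, was listed with several transcripts, and the most abundant, NM_006757, was higher, at 4.24 FPKM in hypoxia with a log2 change of 0.86.

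**Figure D2:**
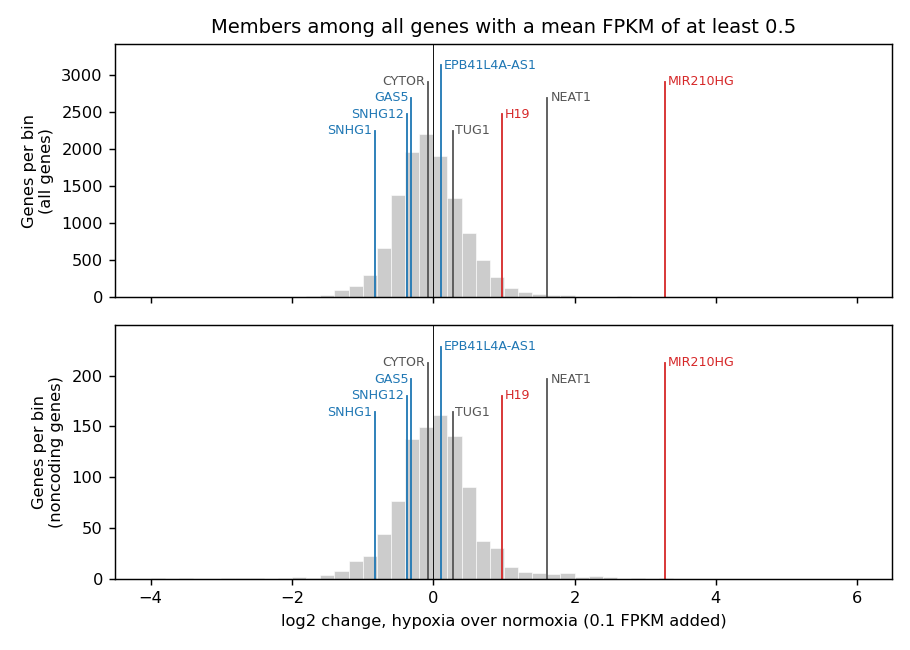
Log2 change of all genes with a mean of at least 0.5 FPKM (top, 12107 genes) and of the noncoding ones (bottom, 973 genes) in bins of the log2 change, with a line for each listed member. MIR210HG lies beyond nearly all genes, NEAT1 and H19 lie in the upper tail, SNHG1 lies in the lower tail, and the other 5 members lie in the body of the distribution.

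The 4 snoRNA hosts were together at 790 FPKM in normoxia and 531 FPKM in hypoxia. They made up 84.4% of the summed FPKM of the listed members in normoxia and 70.3% in hypoxia. SNHG1 accounts for most of the difference between the sums, and only SNHG1 of the 4 passed 1.5-fold.

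SNHG1, the host of SNORD22 and SNORD25 to SNORD31, was at 439 FPKM in normoxia and 247 FPKM in hypoxia. It was 1.77-fold lower in hypoxia (log2 change -0.83), and 57 of the 973 noncoding genes had a lower log2 change. In normoxia SNHG1 was the most abundant member, and in hypoxia it lay beside GAS5 at 249 FPKM. Its call depends on the scaling: its log2 change was -0.60 after scaling to equal sums, and -0.53 with quantile normalization, which is within 1.5-fold.

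GAS5, first described in growth-arrested cells, was at 310 FPKM in normoxia and 249 FPKM in hypoxia. This is a log2 change of -0.31, within 1.5-fold, and it turned to 0.03 with quantile normalization. SNHG12 was at 34.2 FPKM in normoxia and 26.5 FPKM in hypoxia, a log2 change of -0.37, and lay below 0 under each scaling tried. Both values lie in the lower part of all genes, with 28.7% of genes below GAS5 and 24.3% below SNHG12. EPB41L4A-AS1, the antisense neighbor of the cytoskeletal gene EPB41L4A, was at 7.21 FPKM in normoxia and 7.78 FPKM in hypoxia, a log2 change of 0.11. EPB41L4A itself was at 1.32 and 1.00 FPKM, and whether strand was used in counting is not given in the sources used here, so reads of overlapping genes cannot be told apart.

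Of the snoRNA genes inside these hosts, 5 had entries of their own. Reads in these short entries may come from the host RNA, and a snoRNA is shorter than most fragments of such a library, so the values are not levels of mature snoRNAs. SNORD22 in SNHG1 was at 296 FPKM in normoxia and 262 FPKM in hypoxia, a log2 change of -0.17 beside -0.83 for its host. In SNHG12, the log2 changes were -0.55 for SNORA16A, -0.50 for SNORA61 and -0.02 for SNORA44, beside -0.37 for the host. SNORA13 in EPB41L4A-AS1 was at 4.08 FPKM in normoxia and 2.52 FPKM in hypoxia, lower by 1.59-fold, while its host was at nearly the same level in both conditions. No snoRNA of GAS5 and no microRNA of the other members had an entry. GAS5-AS1, which lies within the span of GAS5 on the other strand, was at 6.85 FPKM in normoxia and 3.28 FPKM in hypoxia, 2.06-fold lower.

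TUG1, an RNA known for its part in chromatin regulation, was listed with 3 transcripts on chromosome 22 (31365197 to 31375380) that were assigned to it by their position. Their sum was 31.1 FPKM in normoxia and 37.6 FPKM in hypoxia, a log2 change of 0.27. NR_110493 was the most abundant, at 16.3 and 21.0 FPKM, with 52.4% of the sum in normoxia and 55.8% in hypoxia. NR_002323 was at 11.0 and 11.7 FPKM, and its share went from 35.5% to 31.2%. NR_110492 was at 3.78 and 4.88 FPKM. All 3 were thus slightly higher in hypoxia, with log2 changes of 0.09 for NR_002323, 0.36 for NR_110492 and 0.37 for NR_110493, and each within 1.5-fold. MORC2, the coding gene that begins 471 bases away on the other strand, was at 3.85 FPKM in normoxia and 4.30 FPKM in hypoxia.

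CYTOR, an RNA often found raised in carcinomas, was the third most abundant member in normoxia. Its 3 transcripts on chromosome 2 (87754974 to 87821030) summed to 68.9 FPKM in normoxia and 65.2 FPKM in hypoxia, a log2 change of -0.08. The sign of so small a value has no weight, and it turned to 0.15 after scaling to equal sums and to 0.13 after quantile normalization. NR_024206 carried 93.5% of the sum in normoxia and 95.1% in hypoxia. NR_024204 was at 4.09 and 2.96 FPKM, and NR_024205 lay below the limit, at 0.371 and 0.249 FPKM. CYTOR has a near-identical copy, MIR4435-2HG, elsewhere on chromosome 2. The best aligned pair of GENCODE transcripts of these genes matched at 99.1% of 6657 bases, so reads could be split between them and the level of either is uncertain. MIR4435-2HG was at 95.9 FPKM in normoxia and 98.3 FPKM in hypoxia, and the sum of both genes was 165 and 164 FPKM, a log2 change of -0.01.

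**Figure D3:**
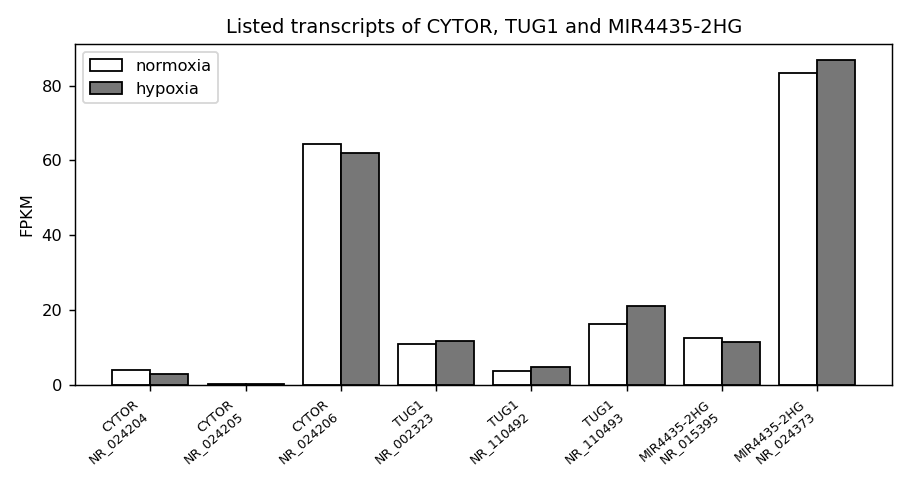
FPKM of each listed transcript of CYTOR, TUG1 and MIR4435-2HG, the copy of CYTOR, in normoxia (open bars) and hypoxia (gray bars), as the authors' values over 4 replicates. In each gene the order of the transcripts is the same in both conditions, with NR_024206, NR_110493 and NR_024373 the most abundant.

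A window of 250 bases before to 50 bases after the annotated start was given by RefSeq (GRCh38.p14) for 8 of the 9 listed members. No window of NEAT1 was used. The windows were searched on both strands for ACGTG and GCGTG, the core letters of the hypoxia response element that HIF1A and its partner bind. Over all 35116 windows, 21.4% hold ACGTG, 36.5% hold GCGTG and 48.4% hold at least 1 of them. At least 1 was found for MIR210HG (2), TUG1 (4), SNHG1 (2), SNHG12 (3) and EPB41L4A-AS1 (1), and none for H19, GAS5 and CYTOR. Of all windows, 10.1% held 3 or more matches and 4.4% held 4 or more. A palindrome counts on each strand, so the count of TUG1 includes a single site read both ways. The match is thus found in members that were higher, lower and nearly level in hypoxia. The 2 matches of MIR210HG, which begin 170 and 9 bases before the start, are shown because this gene had the largest change, beside 1 of TUG1, where ACGTG lies on both strands of the palindrome CACGTG.
MIR210HG, chr11:568613-568637 (-, GRCh38.p14): ccccgggcagACGTGcagaaaagaa
MIR210HG, chr11:568452-568476 (-, GRCh38.p14): acggggctggGCGTGgagccgcggg
TUG1, chr22:30969179-30969203 (+, GRCh38.p14): cgcccctgtcACGTGacagcgtgcg

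The same windows were searched for a pyrimidine start, a C followed by at least 4 bases that are each C or T, beginning within 10 bases of the annotated start. Such a run was found in 33.5% of all windows and in SNHG12 alone among the 4 member hosts. In the list of other snoRNA hosts described next, 16 of 24 windows (66.7%) held it. These 24 windows include hosts without a value above the FPKM limit, and some hosts above it have no window. The annotated start may not be that of the transcript listed, so a missing match says only that these letters are not there. The starts of SNHG12 and of SNHG4, SNHG18, ZFAS1 and SNHG5 are shown with the run in capitals, since these hosts differ widely in their change. The run of SNHG18, 22 bases long, goes on past the bases shown.
SNHG12, chr1:28581854-28581883 (-, GRCh38.p14): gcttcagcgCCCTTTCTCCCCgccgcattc
SNHG4, chr5:139274091-139274120 (+, GRCh38.p14): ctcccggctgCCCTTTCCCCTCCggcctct
SNHG18, chr5:9546190-9546219 (+, GRCh38.p14): gccgcgccgCCTCCTCCTCCTCCTCCTCCC
ZFAS1, chr20:49278632-49278661 (+, GRCh38.p14): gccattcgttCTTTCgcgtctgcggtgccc
SNHG5, chr6:85678714-85678743 (-, GRCh38.p14): gcacttcggtCTTTTacgtcggccttcgcg

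A list of 30 other snoRNA hosts (among them ZFAS1, DANCR and further SNHG genes) had 18 genes above the limit. In hypoxia 11 were lower and none higher by 1.5-fold, and 17 of the 18 had a log2 change below 0, beside 56.4% of all genes. Their median log2 change was -0.75, beside -0.07 for all genes, of which 11.2% were lower. Scaling to equal sums gave a median of -0.53, with 9 lower and 1 higher. The lowest values were those of SNHG9 (log2 change -2.60, from 1.45 to 0.155 FPKM) and SNHG4 (-1.81, from 30.8 to 8.73 FPKM). SNHG9 passed the limit through normoxia alone, and its hypoxic level is near the 0.1 added. With a limit of 1 FPKM on the mean, 10 of 17 hosts were lower. ZFAS1 (-0.20) and SNHG5 (-0.03) lay near 0. SNHG18, which has the longest pyrimidine run of these windows, was the only one with a positive value, 0.45.

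The proteins of snoRNA particles were described beside their hosts. All 17 genes of this list had a log2 change below 0, with 7 lower by 1.5-fold and a median of -0.57. Over all genes, 56.4% were below 0 and 11.2% were lower. Of the core box C/D proteins, NOP56 went from 316 to 129 FPKM (log2 change -1.29), NOP58 from 148 to 70.4 FPKM (-1.07), and FBL, the methyltransferase fibrillarin, from 48.1 to 33.5 FPKM (-0.52). Of the box H/ACA proteins, DKC1, the pseudouridine synthase dyskerin, was at 70.4 and 32.6 FPKM (-1.11), while NHP2, NOP10 and GAR1 had values of -0.53, -0.58 and -0.48. NUFIP1, an assembly factor, had the lowest value of the list, -1.52. With scaling to equal sums 94.1% of the 17 genes were below 0, beside 36.2% of all genes.

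Proteins of the paraspeckle, the nuclear body built on NEAT1, were described beside it. Of 29 genes above the limit, none was higher and 2 were lower by 1.5-fold, RBM3 (log2 change -1.24) and HNRNPR (-0.64). Over all genes, 9.94% were higher and 11.2% were lower. The median of the 29 was -0.19, beside -0.07 for all genes, and with scaling to equal sums it was 0.03, beside 0.15. The core proteins SFPQ, NONO and PSPC1 had values of -0.53, -0.38 and -0.44 and lay within 1.5-fold. The 2 largest positive values were those of SMARCA4 (0.20) and HNRNPM (0.18).

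A list of factors that bind pyrimidine starts, control translation or degrade translated host RNAs held 20 genes. Its median log2 change was 0.00, beside -0.07 for all genes. Only EIF4E, the cap-binding protein, passed 1.5-fold, at 32.9 FPKM in normoxia and 20.7 FPKM in hypoxia (-0.66). By the same limit, 11.2% of all genes were lower and 9.94% were higher. LARP1, which binds pyrimidine starts, was at -0.46, and the largest positive values were those of the decay kinase SMG1 (0.45) and of RPTOR (0.41).

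Coding genes beside the members gave a median log2 change of -0.23 over 16 genes above the limit, beside -0.07 for all genes. Of the 16, 1 was higher and 4 were lower, beside 9.94% and 11.2% of all genes. WDR74, a ribosome assembly factor 10169 bases from SNHG1, was at 41.8 FPKM in normoxia and 14.0 FPKM in hypoxia (log2 change -1.57). SLC3A2, an amino acid transporter subunit that begins 51 bases from SNHG1 on the other strand, went from 143 to 99.7 FPKM (-0.52), within 1.5-fold. RCC1, a nuclear exchange factor 39238 bases from SNHG12, was at -1.31. STARD4, a sterol carrier that was listed as a neighbor of EPB41L4A-AS1 but lies more than 100 kb away, was the gene that was higher (1.15), and RASSF7 beside MIR210HG was at 0.42. Outside the list, other entries near MIR210HG were higher, the noncoding LOC143666 at a distance of 5351 bases (0.306 to 1.10 FPKM, log2 change 1.56) and the transcript NM_004029 of IRF7 at 44096 bases (0.439 to 1.19 FPKM, 1.26), both of which passed the limit through hypoxia. HRAS, 28336 bases away, went the other way, with its transcript NM_005343 at 8.35 FPKM in normoxia and 4.43 FPKM in hypoxia. FRMD8, beside NEAT1, was at 4.25 FPKM in normoxia and 4.28 FPKM in hypoxia.

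**Figure D4:**
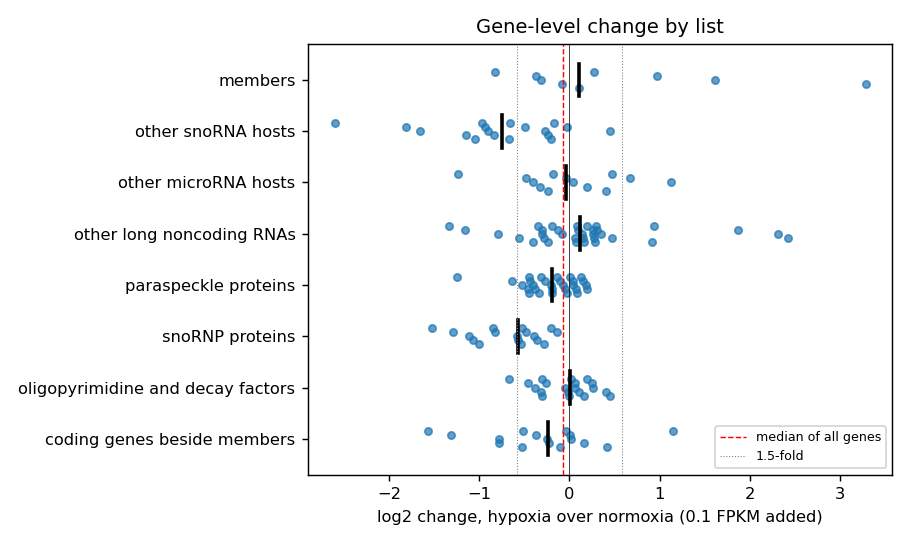
Log2 change of each gene above 0.5 FPKM (points) by list, with the median of each list (black bar), the median of all genes (dashed line, -0.07) and the 1.5-fold limits (dotted lines). The other snoRNA hosts and the snoRNP proteins lie mostly to the left, with medians of -0.75 and -0.57, while the members spread to both sides.

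Other microRNA hosts were set beside MIR210HG and H19. Of 13 such genes above the limit, 2 were higher and 1 was lower, beside 9.94% and 11.2% of all genes. The median log2 change of the 13 was -0.03, beside -0.07 for all genes. MIR9-3HG had the largest value (1.13, from 0.334 to 0.847 FPKM) but, like MIR210HG, passed the limit through hypoxia alone, followed by MIR181A2HG (0.67, from 1.95 to 3.15 FPKM). MIR17HG, the host of the miR-17-92 cluster, was lower, from 9.29 to 3.88 FPKM (-1.24), and MIR31HG was at -0.48. With 1 FPKM added, none of the 13 was higher by 1.5-fold.

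**Figure D5:**
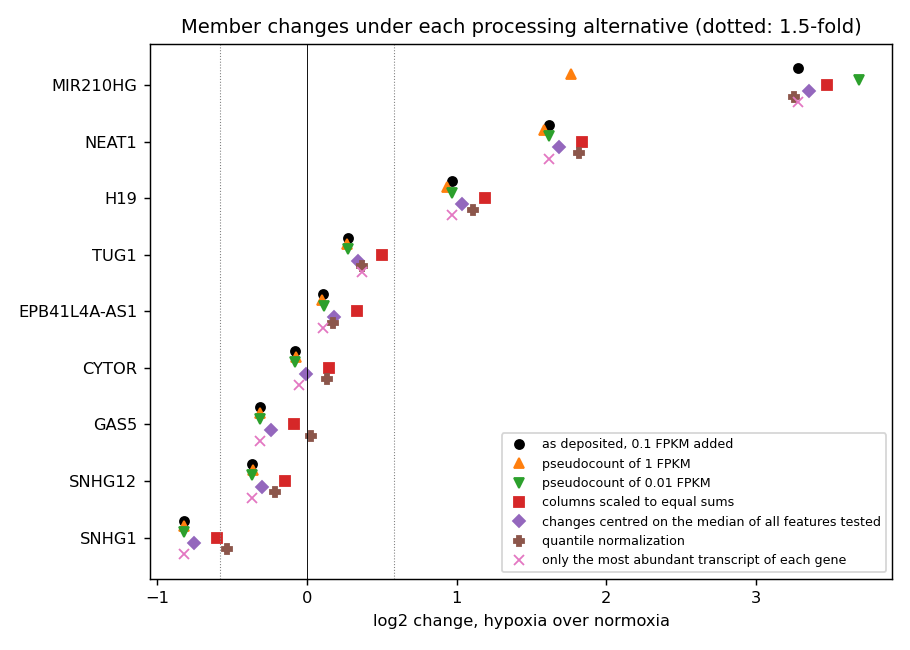
Log2 change of each listed member as deposited with 0.1 FPKM added (black circles) and under 6 alternatives, with the 1.5-fold limits as dotted lines. MIR210HG, NEAT1 and H19 stay to the right of the upper limit under all 6, SNHG1 crosses the lower limit with quantile normalization, and CYTOR and GAS5 cross 0 under at least 1 scaling. Of the 6, taking only the most abundant transcript cannot move members with 1 transcript, such as MIR210HG, NEAT1, H19 and SNHG1.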

How the data were processed

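Libraries were stranded and poly(A)-selected. The authors aligned reads to RefSeq hg19 with STAR (version 2.3.0.1) and ran the Cufflinks suite (version 2.1.1) with standard parameters. Their deposited FPKM values, 1 per transcript and condition over 4 replicates, scale fragments by transcript length and mapped reads. The table also holds the authors' log2 fold change, test statistic, p-value and q-value, which were not used. Depth per sample and values of single replicates are not in it, so no interval, test, replicate block or left-out replicate could be computed.

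Entries were paired with symbols by the RefSeq annotation of GRCh38.p14 (names and neighborhood only), and 3 TUG1 transcripts by an overlap of at least 80% each way with GENCODE v44 on GRCh37. In all, 24296 transcripts (97.9%) were paired, giving 14529 genes. FPKM was summed per gene, with 0.1 added before the log2 ratio and a limit of 0.5 FPKM on the mean. Table positions were shifted by 1 base at the start to count from 1. Distances between genes use GENCODE spans.

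The members and lists were chosen with earlier results of these data known. The rule named all members and, in each list, the 2 highest and the 2 lowest values among genes above the limit, with all snoRNP proteins and the genes within or copied from a member. Other genes (core paraspeckle proteins, ZFAS1, SNHG5 and near neighbors such as IGF2, TNNT3, SLC3A2, IRF7 and FRMD8) were named after their values were seen. The code that makes the calls was checked on simulated data with planted changes. That check used an assumed noise and only genes expressed in normoxia, so it does not measure the error of the calls given here. Alternatives changed the scaling, the amount added, the limits on FPKM and fold, and the summing of transcripts. Python 3.11.15, numpy 2.4.6, pandas 2.3.3, matplotlib 3.10.9 and BLAST 2.17.0 were used.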

Additional observations from a re-analysis of the deposited data

How the results depend on the processing

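No paired analysis was possible because the table gives 1 value per condition, and replicates could not be left out for the same reason. Of 311 values recomputed under alternatives, 269 stayed the same, 42 moved, and no called change turned its sign. Some could not change, such as those with only the most abundant transcript for the 7 members with 1 transcript. A log2 change counted as the same if it kept its side of the 1.5-fold limit and also shifted by less than 1.5-fold. A count or share counted as the same if it stayed within 1.5 times its value. Where a value moved, the cause was not tested beyond what the alternative itself changes.

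The members higher in hypoxia numbered 3 under each alternative but the limit of 2-fold, where H19 dropped out and 2 were left, and with equal sums 4 transcripts were higher. The lower one was lost (0) with quantile normalization, where SNHG1 was at -0.53, and at a limit of 2-fold (0), for genes as for transcripts. MIR210HG moved to 1.77 with 1 FPKM added, and TUG1 NR_110493 to 0.59 with equal sums. The share of genes higher was 5.94% with 1 FPKM added, 18.3% with equal sums and 3.20% at 2-fold, and that of genes lower was 4.94% with equal sums and 2.62% at 2-fold. For transcripts, the share higher was 5.78%, 18.8% and 3.70% under these 3 alternatives, and the share lower 8.99%, 6.99% and 3.69%.

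The median of the other snoRNA hosts was -0.53 with equal sums, 1 of them was higher with equal sums or without the FPKM limit, and 5 were lower at 2-fold. Of the other microRNA hosts, 0 were higher with 1 FPKM added, 4 with equal sums, and 1 at a limit of 1 FPKM or at 2-fold, and 2 were lower without the FPKM limit. Of the other long noncoding RNAs, 3 were higher with 1 FPKM added or at 2-fold. Of the paraspeckle proteins, 1 was higher without the FPKM limit and 1 was lower with equal sums, centering, quantile normalization or at 2-fold. Of the oligopyrimidine and decay factors, 2 were higher with equal sums, and 0 were lower with equal sums, quantile normalization or at 2-fold. Of the coding neighbors, 2 were higher with equal sums or without the FPKM limit, and 2 were lower with equal sums or at 2-fold. With only the most abundant transcript of each gene, 1 oligopyrimidine or decay factor was higher and 0 were lower, 8 snoRNP proteins were lower, 2 coding neighbors were higher, and of the other long noncoding RNAs 6 were higher and 4 lower. The median log2 change of all genes, -0.07 as deposited, was 0.15 with equal sums.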

Other observations

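Beyond the 10 chosen genes and the hosts, a list of 63 further long noncoding RNAs had 34 genes above the limit of 0.5 FPKM. Of these, 5 were higher and 3 were lower in hypoxia by 1.5-fold, beside 9.94% and 11.2% of all genes and 12% and 11.3% of noncoding genes. The median log2 change of the 34 was 0.12, beside -0.07 for all genes and 0.02 for noncoding genes. The largest value was that of HIF1A-AS2, an antisense RNA of the HIF1A locus, at 3.67 FPKM in normoxia and 20.1 FPKM in hypoxia (log2 change 2.42). As for EPB41L4A-AS1, whether strand was used in counting is not given, so reads from the other strand of this locus cannot be told apart. LUCAT1, a stress-responsive RNA, went from 0.685 to 3.78 FPKM (2.31). The other 3 that were higher, named after their values were seen, were UCA1, an RNA first found in bladder carcinoma (27.0 to 98.5 FPKM, 1.87), LINC00511 (0.93, which passed the limit through hypoxia alone) and LINC00342 (0.92). UCA1 at 98.5 FPKM in hypoxia stood above NEAT1 at 79.4 FPKM. The lowest values were those of BCYRN1 (-1.33) and CCAT1 (-1.16, from 7.97 to 3.51 FPKM).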
